A study of Mus musculus with 18 samples.

Results

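The 44 protein-coding genes whose mouse symbol has the form Col, number, a, number were examined, of 38355 genes counted in each library. They were taken by their names and not by their values. RNA had been sequenced from dissected cortex of C57BL/6 embryos of stage E12.5, in 18 libraries. Wild type (WT) had 4 libraries, the knockout (KO) of Dmrt3 had 5, that of Dmrt5 had 4, and the double KO, which lacks both Dmrt3 and Dmrt5, had 5. The labels name the genotypes in those terms and give no promoter, Cre driver, litter or embryo number, and whether libraries came from separate embryos is not given, so p-values measure the spread between these libraries. Dmrt3 and Dmrt5 are transcription factors of the doublesex-related family that act in progenitors of the dorsal telencephalon, and the gene labelled Dmrt5 now has the symbol Dmrta2.

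Collagens are the main structural proteins of the extracellular matrix. Each molecule is a triple helix of 3 alpha chains, and each alpha chain is the product of 1 of these genes. The fibrillar collagens I, II, III, V and XI build fibrils. Collagen IV forms the sheet-like network of basement membranes, including the pial surface of the brain and the sheath of its vessels. Collagen VI forms beaded filaments, collagen VIII short-chain networks, FACIT collagens such as IX sit on fibrils, multiplexins (XV and XVIII) lie in basement membranes, and a further group spans the cell membrane. In the embryonic head the fibrillar chains are known as products of fibroblast-like mesenchyme, which forms the meninges over the cortex. Neural progenitors and neurons make few of them.

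Counts per library ran from 19602718 to 33072896. Levels are given as counts scaled to library size (CPM, the unit of edgeR) after scaling of the libraries by the trimmed mean of M-values. The targeted transcripts followed the labels: Dmrt3 lay between 0 and 0.398 CPM in the libraries lacking it and between 30.3 and 61.8 CPM in the others. Dmrta2 lay between 1.66 and 25.1 CPM in the libraries lacking it, with the highest of these in Dmrt5 KO replicate 1, and between 155 and 295 CPM in the others. Mesenchyme in a library was read from 16 genes that are not collagens, among them Foxc1, Twist1, Pdgfra and Lum. The mean log2 CPM of the 16 is called the mesenchyme score, and 1 unit of it stands for a doubling. Of the 44 collagen genes, 38 passed the filter on low counts and were tested. A gene was called when its adjusted p was under 0.05 (edgeR quasi-likelihood test, Benjamini-Hochberg over the 16236 tested genes). Where members are counted at an unadjusted p under 0.05, the share of all genes at that limit is not given. Such counts are therefore no measure of an excess among members.

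The windows before the transcription starts of 4 members are shown because these members stand for the patterns described further on. Col3a1, Col5a1 and Col23a1 had a positive slope on the mesenchyme score with all libraries, and Col25a1 rose in the double KO. Each is 250 bases long, read on the plus strand in which all 4 genes run, from RefSeq on GRCm38.p6. Capitals mark 3 promoter elements searched on both strands, the TATA box TATAAA, the CCAAT box CCAAT and the GC box GGGCGG, which reads CCGCCC when it lies on the minus strand. The windows were chr1:45311288-45311537 for Col3a1, chr2:27886175-27886424 for Col5a1, chr11:51289670-51289919 for Col23a1 and chr3:130180595-130180844 for Col25a1.
Col3a1: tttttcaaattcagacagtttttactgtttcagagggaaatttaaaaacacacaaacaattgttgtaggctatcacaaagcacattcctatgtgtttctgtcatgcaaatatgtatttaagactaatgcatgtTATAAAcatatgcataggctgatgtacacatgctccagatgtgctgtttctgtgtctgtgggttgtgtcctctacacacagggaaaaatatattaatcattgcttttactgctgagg
Col5a1: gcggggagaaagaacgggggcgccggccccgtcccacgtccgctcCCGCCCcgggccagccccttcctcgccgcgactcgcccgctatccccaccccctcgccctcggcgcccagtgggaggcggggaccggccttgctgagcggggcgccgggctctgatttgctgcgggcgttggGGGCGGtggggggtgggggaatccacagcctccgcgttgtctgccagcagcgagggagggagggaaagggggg
Col23a1: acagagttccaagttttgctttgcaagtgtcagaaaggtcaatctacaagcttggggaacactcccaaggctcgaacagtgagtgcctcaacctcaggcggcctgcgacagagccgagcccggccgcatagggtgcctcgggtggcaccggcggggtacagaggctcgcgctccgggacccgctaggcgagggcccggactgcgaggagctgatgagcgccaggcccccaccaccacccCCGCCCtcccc
Col25a1: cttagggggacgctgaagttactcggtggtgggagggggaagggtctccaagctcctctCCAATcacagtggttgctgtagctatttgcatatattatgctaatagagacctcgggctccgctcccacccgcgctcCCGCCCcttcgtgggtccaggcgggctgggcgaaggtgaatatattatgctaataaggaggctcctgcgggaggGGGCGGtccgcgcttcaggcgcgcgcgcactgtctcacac
The Col3a1 window held a TATAAA at position -117, counted from the start, and no GC box. The Col5a1 window held GC boxes at -205 and -73, the Col23a1 window 1 at -11, and the Col25a1 window a CCAAT at -191 and GC boxes at -114 and -40. The RefSeq start of Col25a1 lies inside the longer gene model of GENCODE M21, which begins at position 130131501 of chromosome 3.

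A window was at hand for 35 of the 44 members (38 windows). GC boxes stood in 57.9% of the members' windows and in 32.7% of the 32851 windows of all genes. For the TATA box the shares were 13.2% and 12.4%, and for the CCAAT box 34.2% and 33.8%. The core ACANTGT of the doublesex-family motif was found in 1 member window, that of Col28a1 (2.63% against 6.47% of all). The members' windows held a median of 9.5 CpG dinucleotides, and those of all genes 6. These are matches of letters, and no binding was measured.

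Basement membrane and fibrillar chains were the most abundant collagens of the E12.5 cortex samples. Per kilobase of exon, over all 18 libraries, the mean level was 41.5 CPM for Col4a1, 39.4 for Col4a2, 37.97 for Col3a1, 34.3 for Col1a1, 30.9 for Col2a1 and 27.7 for Col18a1. The next were Col1a2 (17.4), Col26a1 (9.76), Col5a2 (9.13) and Col5a1 (8.93). Neighbours in this order differed by less than the larger of their SDs between libraries. The gaps from Col18a1 to Col1a2 and from Col1a2 to Col26a1 were above the smaller SD. Taking the longest transcript as gene length raised Col1a2 to 40.4, Col3a1 to 66.98, Col2a1 to 55.98 and Col26a1 to 28.7 CPM per kilobase, so their ranks depend on the gene model.

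Other structural classes were represented at lower levels. The beaded filament chains Col6a1, Col6a2 and Col6a3 had 4.65, 3.99 and 1.82 CPM per kilobase. The FACIT chains Col9a3, Col9a2 and Col22a1 had 5.96, 4.72 and 1.84. Of the short-chain network genes Col8a2 had 5.75 and Col8a1 0.283 CPM per kilobase, and the multiplexin Col15a1 had 4.32. The transmembrane collagens Col23a1, Col13a1 and Col25a1 had 3.69, 0.6896 and 0.548. Col7a1, the anchoring fibril chain, had 0.563 and Col4a5 2.996 CPM per kilobase.

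The 6 members that did not pass the filter had at most 35 counts in any library. Col10a1, a marker of hypertrophic cartilage, had 0 to 3 counts and Col28a1 0 to 6. Col4a3 had 1 to 11, Col19a1 0 to 15, Col6a5 2 to 34 and Col6a6 0 to 35 counts.

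Collagen genes took between 0.107% and 0.519% of the counts of a library, and the ranges of the genotypes overlapped. The shares were 0.300, 0.254, 0.215 and 0.519% in WT replicates 1 to 4, 0.250, 0.144, 0.246, 0.261 and 0.498% in Dmrt3 KO replicates 1 to 5, 0.173, 0.150, 0.386 and 0.191% in Dmrt5 KO replicates 1, 2, 4 and 5, and 0.118, 0.116, 0.107, 0.455 and 0.109% in double KO replicates 1 to 5. WT replicate 4, Dmrt3 KO replicate 5, Dmrt5 KO replicate 4 and double KO replicate 4 were the highest of their genotypes. These 4 libraries also had the highest mesenchyme score of their genotypes, 4.55, 5.13, 4.61 and 4.71. Of the 38 tested members, 33 were highest in that library within WT, 30 within Dmrt3 KO, 32 within Dmrt5 KO and 30 within the double KO. The share of all tested genes that were highest in these libraries is not given. These counts are therefore no measure of an excess among members.

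The fibrillar chains of interstitial matrix spread widely between libraries. Col1a1, the alpha 1 chain of collagen I (ENSMUSG00000001506, chromosome 11, 94936224 to 94953042), stood at 254, 190.4, 140.3 and 746 CPM in WT and at 233, 112, 229, 190.5 and 775 CPM in Dmrt3 KO. It stood at 101, 57.6, 429.9 and 87.04 CPM in Dmrt5 KO and at 52.8, 19.3, 16.5, 421 and 1.52 CPM in the double KO, each in order of replicate number. The lowest of these, in double KO replicate 5, rested on 39 counts, and the most counts in a library were 25770. In the double KO 4 libraries were below every WT library and replicate 4 was above 3 of the 4, so the groups overlapped.

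Col3a1, the chain of collagen III in pliable connective tissue (ENSMUSG00000026043, chromosome 1, 45311538 to 45349706), was lowest and highest in the same libraries as Col1a1. Its levels were 463, 493, 306 and 841 CPM in WT, 379.98, 210.3, 379.7, 419 and 861 in Dmrt3 KO, 257, 193, 578 and 239.8 in Dmrt5 KO and 146, 62.3, 59.3, 812 and 8.89 in the double KO. Col6a3, a chain of the beaded filaments, stood at 31.4, 18.7, 17.6 and 67.5 CPM in WT, 26.7, 10.4, 22.6, 17.1 and 57.8 in Dmrt3 KO, 10.6, 7.55, 38.5 and 11.1 in Dmrt5 KO and 8.36, 2.37, 2.18, 41.9 and 0.234 in the double KO. Col8a2, a short-chain collagen of the basement membrane under the corneal endothelium, stood at 12.2, 33.5, 14.01 and 62.5 CPM in WT, 20.9, 3.98, 23.3, 9.36 and 96.5 in Dmrt3 KO, 7.47, 3.897, 67.8 and 3.63 in Dmrt5 KO and 3.81, 1.46, 1.29, 98.8 and 0.195 in the double KO. In all 3 genes replicate 4 of the double KO exceeded most WT libraries, and the other double KO libraries were below every WT library.

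Chains of basement membranes varied less. Col4a1 (ENSMUSG00000031502) stood at 438, 310.2, 292 and 590.03 CPM in WT, 339, 199.6, 327, 359 and 388 in Dmrt3 KO, 246, 222, 407 and 296 in Dmrt5 KO and 172, 183, 168, 461 and 185 in the double KO. Double KO replicate 5, which had almost no Col1a1, kept Col4a1 at the level of replicates 1 to 3. Col18a1, whose product lies in vascular and epithelial basement membranes, stood at 237, 229, 219.9 and 258 CPM in WT, 241, 148, 225, 247 and 251 in Dmrt3 KO, 173, 141, 229.6 and 185 in Dmrt5 KO and 96.9, 139, 125, 248 and 103 in the double KO. Col2a1, known from cartilage and from early neuroepithelium, stood at 259, 301, 225 and 361 CPM in WT, 249, 165, 229, 233 and 424 in Dmrt3 KO, 247, 263, 401 and 288 in Dmrt5 KO and 199, 291, 229, 456 and 321 in the double KO. Its genotypes overlapped widely.

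**Figure D1:**
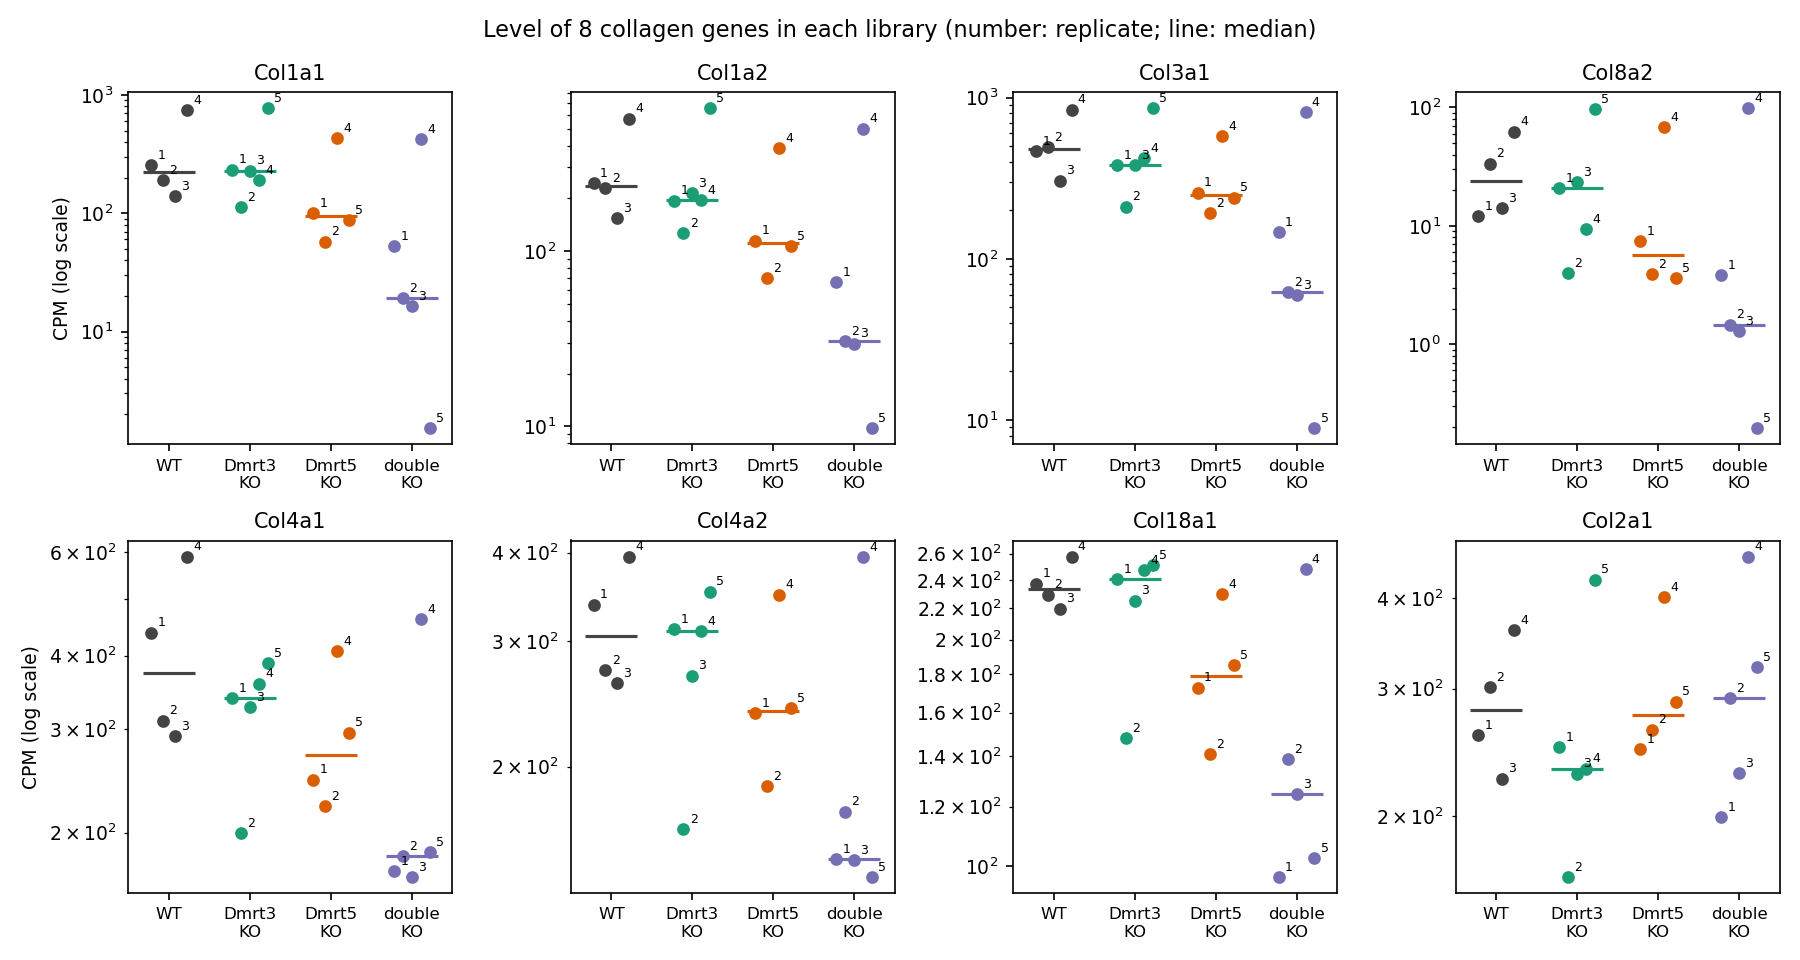
Level of 8 collagen genes in CPM (log axis) in each of the 18 libraries, by genotype. Points are libraries with their replicate number and lines are medians. Col1a1 reached 1.52 CPM in double KO replicate 5 and 421 CPM in replicate 4, while Col2a1 overlapped between all genotypes.

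Set beside all genes, collagens stood high in spread. The SD of log2 CPM within genotypes had a median of 0.66 over the 38 tested members and of 0.34 over all tested genes. Of the members, 36 were above the median of all genes and 19 were among the 10% of genes with the widest spread. Col8a2 (2.18), Col1a1 (1.82), Col8a1 (1.73) and Col6a3 (1.60) were the most variable. Col9a3 (0.30), Col11a2 (0.32), Col20a1 (0.34) and Col4a6 (0.35) were the least variable.

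Loss of Dmrt3 alone left no collagen gene called. Of all tested genes 0.0123% were called in that comparison, and 2 of the 38 members had an unadjusted p under 0.05. The members' median log2 fold change was -0.15 and that of all genes -0.0036. Without Dmrt3 KO replicate 5, the richest in mesenchyme, the members' median was -0.42. Without Dmrt3 KO replicate 2 it was -0.028, and without WT replicate 4 it turned to 0.10, with 24 members above 0 and 15 below. DESeq2 also called none of the 36 members to which it gave an adjusted p, against 0.333% of all genes. It gave no adjusted p to Col1a1 and Col8a1.

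Loss of Dmrt5 alone left no member called with edgeR, against 1.03% of all tested genes, and 2 members had an unadjusted p under 0.05. These were Col25a1, a transmembrane collagen of neurons, at 1.01 ± 0.28 above WT in log2 units (SE, adjusted p = 0.115), and Col9a3, with 0.69 ± 0.20 (adjusted p = 0.143). All 4 Dmrt5 KO libraries lay above all 4 WT libraries for both genes, as was so for 4.39% of all tested genes in this direction. DESeq2 called both higher, with 1.29% of all genes called higher by it. Larger differences with wide errors were seen for Col1a1 (-0.98 ± 1.11, adjusted p = 0.794) and Col6a3 (-0.998 ± 0.96, adjusted p = 0.748).

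In the double KO against WT 2 members rose and none fell, while 2.42% of all tested genes were called higher and 3.81% lower. Of the 38 members 11 had an unadjusted p under 0.05, a limit unlike that of the shares just given. Col25a1 (ENSMUSG00000058897, chromosome 3, 130131501 to 130599877) stood at 2.45, 3.58, 3.72 and 5.44 CPM in WT and 2.19, 3.67, 4.57, 3.81 and 2.89 CPM in Dmrt3 KO. It stood at 7.17, 7.96, 7.01 and 8.49 CPM in Dmrt5 KO and 10.7, 7.95, 14.6, 11.8 and 19.7 CPM in the double KO. The rise against WT was 3.40-fold (log2 1.77 ± 0.28 SE, adjusted p = 0.000656), with 5 of 5 libraries above every WT library. Against Dmrt3 KO the log2 fold change was 1.92 ± 0.26 (SE, adjusted p = 0.000172), also in 5 of 5 libraries, and this was the only member called there, where 1.74% of all tested genes were called higher. Double KO and Dmrt5 KO overlapped, with a log2 difference of 0.76 ± 0.27 (SE, adjusted p = 0.62).

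Col9a3, the alpha 3 chain of the FACIT collagen IX (ENSMUSG00000027570, chromosome 2, 180597790 to 180622189), stood at 17.7, 10.99, 15.96 and 18.1 CPM in WT and 22.8, 20.6, 16.2, 15.9 and 24.4 CPM in Dmrt3 KO. It stood at 21.8, 23.9, 26.3 and 29.3 CPM in Dmrt5 KO and 32.7, 33.2, 30.2, 18.6 and 35.1 CPM in the double KO. The rise in the double KO against WT was 1.91-fold (log2 0.93 ± 0.20 SE, adjusted p = 0.00677), with 5 of 5 libraries above every WT library. Such a lack of overlap upwards was seen for 2.57% of all tested genes. The lowest double KO value was that of replicate 4, which lay beside WT replicate 4. The libraries do not mark strand, and Col9a3 shares 234 exonic bases with Tcfl5 on the other strand, whose log2 fold change was -0.01 (adjusted p = 0.995). The partner chains Col9a1 and Col9a2 did not pass the test in the double KO, with log2 fold changes of 0.02 and -0.09 (adjusted p = 0.997 and 0.961).

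**Figure D2:**
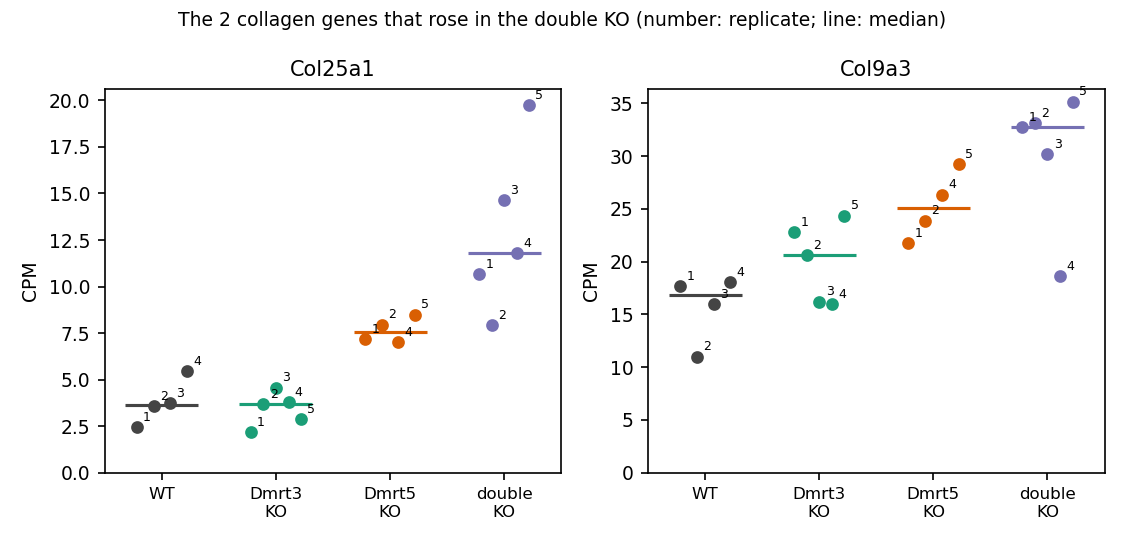
CPM of Col25a1 and Col9a3 in each library by genotype, with replicate numbers and medians as lines. All 5 double KO libraries lie above the 4 WT libraries in both panels, and for Col9a3 replicate 4 of the double KO, at 18.6 CPM, lies nearest to WT.

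The matrix chains had negative fold changes in the double KO with wide errors. Col1a1 had a log2 difference of -1.70 ± 1.05 from WT (SE, adjusted p = 0.456), Col3a1 one of -1.27 ± 0.80 (adjusted p = 0.473) and Col6a3 one of -1.62 ± 0.91 (adjusted p = 0.395). The basement membrane genes had smaller differences with smaller errors, Col4a1 with -0.80 ± 0.31 (adjusted p = 0.156) and Col18a1 with -0.73 ± 0.23 (adjusted p = 0.0765). The members' median was -0.62 and that of all genes 0.01. By class, the median was -1.23 for the 4 tested beaded filament genes, -0.84 for the 2 multiplexins, -0.58 for the 11 fibrillar genes and -0.43 for the 5 tested collagen IV genes. It was -0.91 for the 2 short-chain network genes, -0.56 for the 4 transmembrane genes, -0.42 for the 2 genes of the anchoring fibril and other class and -0.26 for the 8 tested FACIT genes. The median over all members rested on single libraries, being -0.15 without WT replicate 4 and -1.21 without double KO replicate 4. With the mesenchyme score as a covariate it was -0.17.

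Double KO replicate 4 was the only single library whose removal gave members called lower than WT in this edgeR fit. With all libraries kept, DESeq2 called 2 members lower (4.84% of all genes). A fit with the replicate number as a block called 7 lower (4.67% of all genes). Double KO replicate 4 was singled out by the same values, since 30 of the 38 members were highest in it within the double KO. WT replicate 4 was kept. The p-values of fits without double KO replicate 4, here and against the single KO genotypes, are therefore no independent test. Without double KO replicate 4, 17 members fell against WT and Col25a1 and Col9a3 rose, while 7.83% of all tested genes were called lower and 4.52% higher. Of the fibrillar chains Col1a1 fell by 3.89 (adjusted p = 0.012), Col1a2 by 3.13, Col3a1 by 2.93, Col5a1 by 1.83 and Col27a1 by 1.22 on the log2 scale. Of the beaded filament chains Col6a3 fell by 3.38 and Col6a1 by 2.72, and Col6a2 was 4.92-fold lower. Col8a2 fell by 4.20 (adjusted p = 0.0279), Col16a1 by 2.62, Col23a1 by 2.48, Col13a1 by 2.37 and Col26a1 by 1.67. The basement membrane genes fell less, Col15a1 by 1.33, Col4a1 by 1.20, Col4a2 by 1.06 and Col18a1 by 1.03. For 18 of the 38 members all 4 remaining double KO libraries were below all WT libraries, as was so for 8.78% of all tested genes.

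The same library bore on the comparisons with the single KO genotypes. Against Dmrt3 KO, 16 members were lower without it (5.43% of all tested genes), and Col25a1, Col9a3 and Col4a4 were higher (3.42%). Col4a4 had at most 26 counts in any library. Against Dmrt5 KO no member was called with all libraries (0.333% of all genes, 1 member at an unadjusted p under 0.05), and without replicate 4 the only one was Col23a1, which was lower (0.456% of all genes called lower). Leaving out the library of highest mesenchyme score from each of the 4 genotypes gave 18 members lower and 2 higher in the double KO against WT. Of all genes 7.04% were then lower and 4.04% higher. No member was called in the interaction of both losses (0.142% of all genes, 2 members at an unadjusted p under 0.05).

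**Figure D3:**
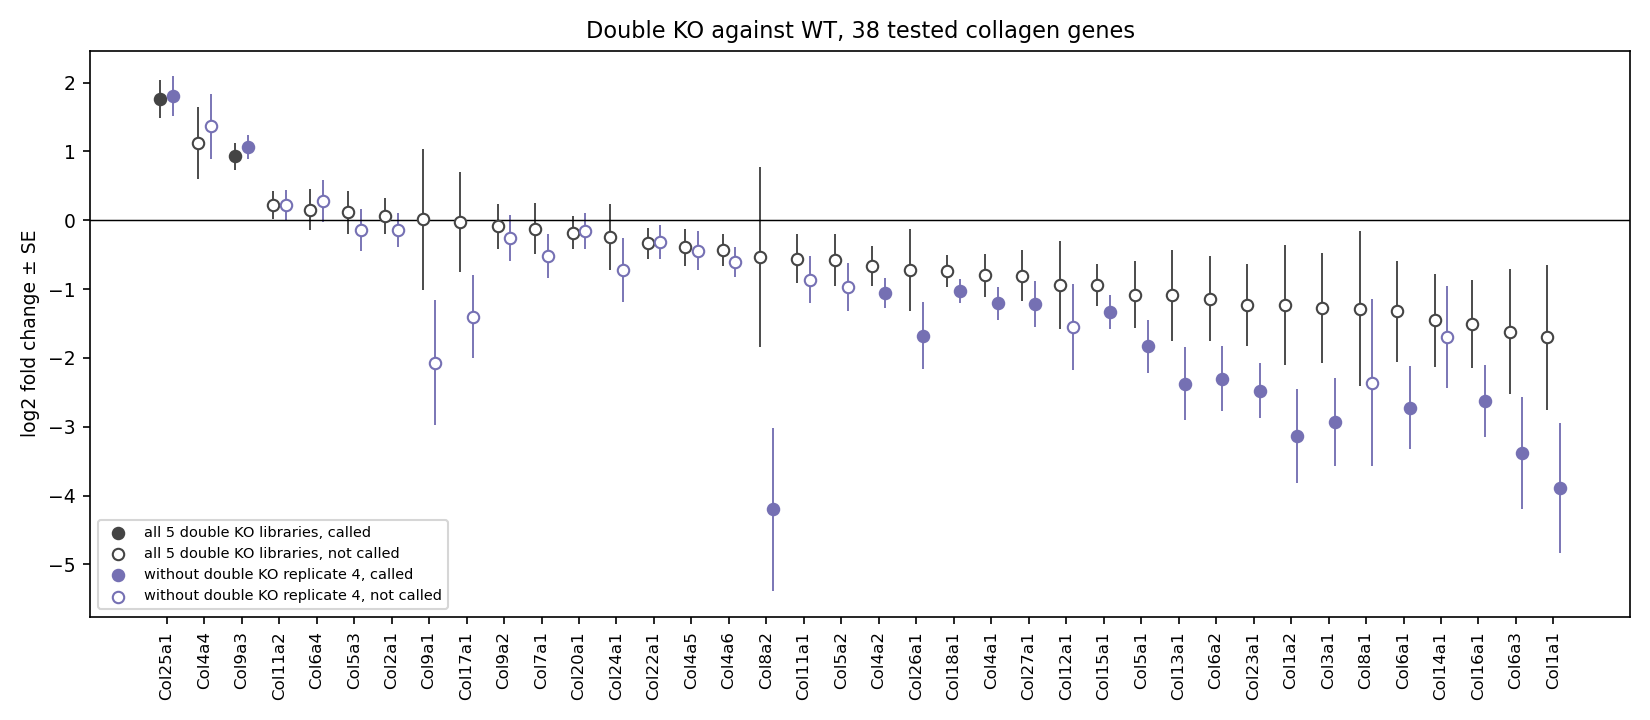
Log2 fold change of the double KO against WT with its SE for the 38 tested collagen genes, with all 5 double KO libraries (grey) and without replicate 4 (violet). Filled points were called. With all libraries 2 points are called, both above 0, and without replicate 4 a further 17 are called below 0.

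Other mesenchyme genes moved with the collagens. The score was 3.51, 4.11, 3.55 and 4.55 in WT, 3.83, 3.01, 3.75, 3.47 and 5.13 in Dmrt3 KO, 3.11, 2.70, 4.61 and 2.73 in Dmrt5 KO and 2.61, 1.29, 1.42, 4.71 and -0.47 in the double KO. Its mean was 2.02 lower in the double KO than in WT, which the exact two-sided permutation test over libraries did not separate (p = 0.0794, 0.238 adjusted over 3 comparisons, 4 of 5 libraries below every WT library). The summed level of the 16 markers ran from 408 to 638 CPM in WT, from 339 to 938 in Dmrt3 KO, from 279 to 646 in Dmrt5 KO and from 117 to 783 in the double KO. Within WT the highest sum was that of replicate 2, while replicate 4, highest by the score, had 602 CPM. No marker was at 0 throughout a genotype, and none of the 16 was called in a comparison of genotypes. In bulk tissue fewer mesenchyme cells and less RNA per cell cannot be told apart. The labels do not say how much meningeal tissue was removed at dissection, and its part in the spread between libraries was not tested.

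A model with the genotype and the score asked which genes followed the score between libraries of one genotype. In this model 22 members were called with a positive slope and no member with a negative one. Of the 16220 tested genes outside the score, 5.65% were called with a positive slope. The slope, in log2 units per unit of score, was 1.93 ± 0.08 (SE, adjusted p = 1.23e-10) for Col8a2, 1.45 ± 0.08 (SE, adjusted p = 5.51e-09) for Col1a1 and 1.26 ± 0.09 (SE, adjusted p = 4.49e-08) for Col6a3. Col1a2 and Col3a1 both had 1.11. Col6a1, Col13a1, Col6a2, Col26a1, Col16a1 and Col23a1 had slopes of 0.97, 0.89, 0.80, 0.77, 0.73 and 0.72. Col9a1, Col8a1, Col12a1 and Col5a1 had 1.15, 1.02, 0.59 and 0.50. Col5a2, Col27a1, Col9a2, Col4a2, Col15a1, Col4a1 and Col18a1 had slopes from 0.23 to 0.32, so these changed by less than the score itself.

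Some of these calls rested on single libraries. Without Dmrt3 KO replicate 5, 18 members had a positive call (674 of 16218 genes), and without Dmrt5 KO replicate 4 also 18 (748 of 16425 genes). Without double KO replicate 4, 12 members kept a positive call (1.85% of all genes) and 10 lost theirs. Col5a1 then had a slope of 0.42 (adjusted p = 0.125), Col12a1 of 0.66 (adjusted p = 0.107), Col9a2 of 0.41 (adjusted p = 0.0522) and Col8a1 of 1.29 (adjusted p = 0.126). The slopes of Col4a1, Col4a2, Col18a1, Col15a1, Col5a2 and Col27a1, which also lost their calls, lay between 0.14 and 0.27. Col8a2, Col1a1, Col1a2, Col3a1, Col6a1, Col6a2, Col6a3, Col9a1, Col13a1, Col16a1, Col23a1 and Col26a1 were called whichever single library was left out. Without the library of highest score in each genotype, 10 of these 12 were called with a positive slope, against 7.04% of all genes. The members' median slope, 0.32 with all libraries, was 0.04 in that fit, with 18 of 39 members below 0. Col9a1 had 0.25 (adjusted p = 0.343) and Col16a1 0.38 (adjusted p = 0.0698) in that fit. Col4a5, a collagen IV chain, had a negative slope there (-0.35, adjusted p = 0.0438), as was called for 10.5% of all genes. With all libraries 16 members were not called. They included Col2a1 (0.19, adjusted p = 0.107), Col22a1 (-0.13, adjusted p = 0.301), Col25a1 (-0.10, adjusted p = 0.578) and Col9a3 (-0.09, adjusted p = 0.533).

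**Figure D4:**
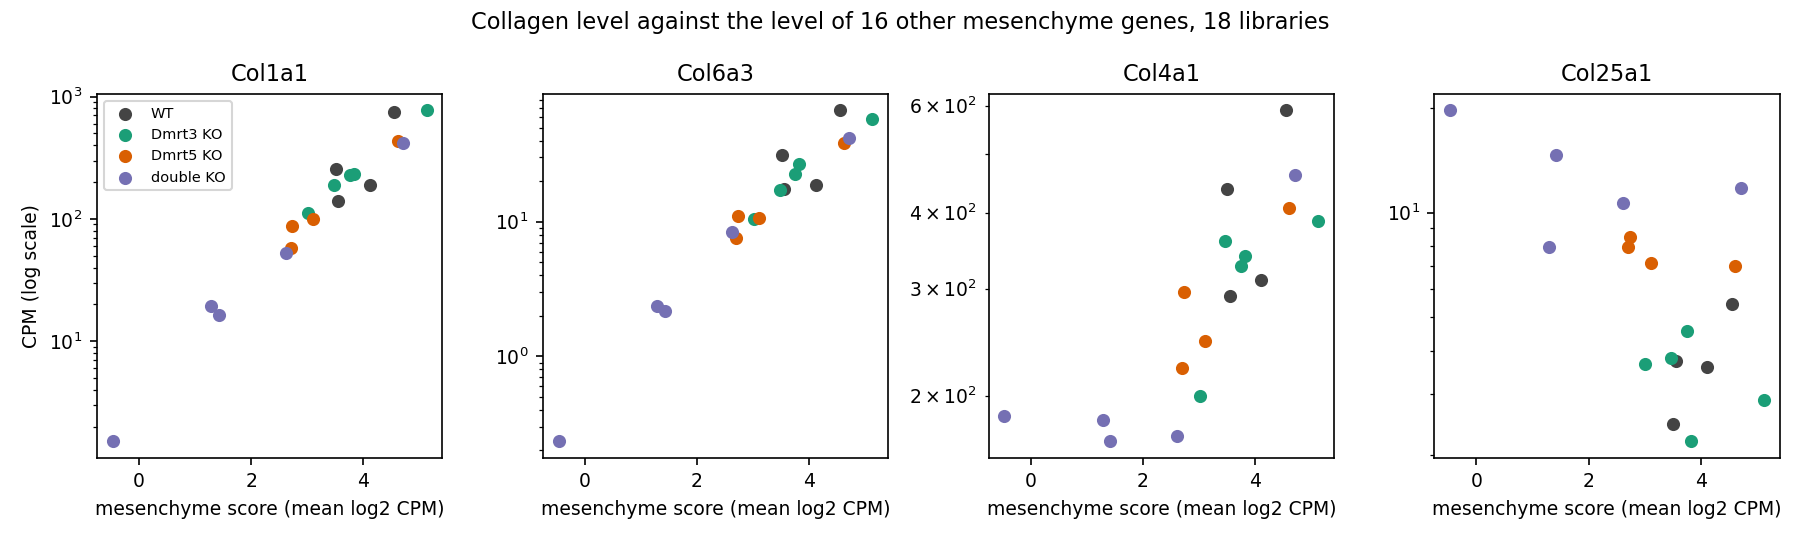
CPM (log axis) of Col1a1, Col6a3, Col4a1 and Col25a1 against the mesenchyme score in the 18 libraries, coloured by genotype. Col1a1 and Col6a3 rise along the score, Col4a1 lies between 168 and 185 CPM in the 4 double KO libraries of low score, and every Dmrt5 KO and double KO library lies above all others for Col25a1.

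With the score as a covariate, Col25a1 remained the only member called in the double KO against WT (log2 1.53 ± 0.30 SE, adjusted p = 0.00889), while 0.85% of all tested genes were higher and 1.96% lower. Col9a3 had 0.74 ± 0.23 (adjusted p = 0.113). No matrix chain was called, and the median over the fibrillar genes was -0.001. The 4 lowest scores of the 18 libraries were those of double KO libraries, so the part of the score and that of the genotype cannot be fully told apart in this model.

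Chains that assemble together were compared through their ratio per kilobase of the longest transcript. Col4a1 and Col4a2, which lie head to head on chromosome 8 with starts 21 bases apart, kept a ratio between 1.01 and 1.46 in the 18 libraries. They share 22 exonic bases. Col4a2 shares another 43 with Gm15419. It, Col5a1, Col15a1, Col22a1 and Col6a4 overlap exons of other genes on the opposite strand, whose reads are not separated from theirs. The same holds for the untested Col4a3, Col6a6 and Col10a1. Col3a1, Col7a1 and Col20a1 overlap exons of other genes on their own strand. The ratio of Col1a1 to Col1a2, which lie on different chromosomes, had a median of 0.79 and ran from 0.14 in double KO replicate 5 to 1.18 in WT replicate 4. In the double KO it was 0.72, 0.56, 0.50, 0.76 and 0.14 and in WT 0.94, 0.75, 0.82 and 1.18, so 4 of 5 double KO libraries were below every WT library. The ratio of Col6a1 to Col6a2 ran from 0.33 in double KO replicate 5 to 0.87, and that of Col4a5 to Col4a6, another head-to-head pair on chromosome X with starts 1309 bases apart, from 1.64 to 3.50. Col9a3 against Col9a1 had the widest range, from 1.49 in double KO replicate 4 to 57.1 in double KO replicate 2. Col4a3 and Col4a4, also head to head with starts 72 bases apart, were too low for a ratio.

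Genes that process collagen were read from a list. The list of biosynthesis and crosslinking genes held 31, of which 30 were tested. In the double KO P3h2, a prolyl hydroxylase of collagen IV, fell by 2.39 (adjusted p = 0.0415) and Pcolce2, an enhancer of procollagen cleavage, by 0.88 on the log2 scale (adjusted p = 0.0358), and none rose. In the single KO comparisons none was called. With the score 15 of the 30 had a positive slope, led by Pcolce (1.02 ± 0.09 SE), Lox, a crosslinking enzyme (1.03 ± 0.10), Loxl1 (0.64 ± 0.06) and Fkbp10, a chaperone of collagen I (0.51 ± 0.05).

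Of 17 tested partners in the matrix, among them laminin genes, 3 fell in the double KO: Lama5 by 1.34 (adjusted p = 0.000249), Lamc3 by 1.77 (adjusted p = 0.0209) and Hspg2, the perlecan gene, by 0.83 on the log2 scale (adjusted p = 0.0386). Lama5 was also the only one called in Dmrt5 KO, where it fell by 1.38 (adjusted p = 0.00358). In Dmrt3 KO none was called. With the score 11 of 17 had a positive slope, led by Fbn2 (0.76 ± 0.10 SE), Lama2 (0.67 ± 0.09), Lamb1 (0.45 ± 0.06) and Lama4 (0.34 ± 0.05). Of 10 tested collagen receptors none was called between genotypes, and Ddr2 (1.13 ± 0.08) and Itga11 (0.79 ± 0.09), both receptors of fibroblasts, followed the score. Of 10 tested degradation genes none was called between genotypes, and Fap, Mmp2 and Ctsk followed the score with slopes of 1.19, 0.76 and 0.62.

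Markers of other cells were read in the same libraries. The 10 endothelium markers summed to 335 to 404 CPM in WT. They summed to 251, 225, 215, 416 and 171 CPM in double KO replicates 1 to 5, below every WT library except in replicate 4. Of the 10, 7 followed the score, and none was called between genotypes. The 9 mural cell markers summed to 211 to 377 CPM in WT and 186 to 307 in the double KO, and 2 of 8 tested followed the score. Of the choroid plexus epithelium list, 5 of 7 fell in the double KO and 4 of 7 in Dmrt5 KO, where the sum was 74.1 to 97.6 CPM against 150.1 to 348 in WT. Markers of tissues outside the brain were low. In WT 3 of the 7 skeletal muscle markers were at 0 in every library. Cartilage markers summed to at most 29.4 CPM, skeletal muscle markers to at most 5.78 and surface ectoderm markers to at most 32.2 CPM in any library. Of these, 3 of 4 tested cartilage and 3 of 8 tested surface ectoderm markers followed the score, and 2 of the latter, Krt8 and Krt18, fell in the double KO. Neural crest glia markers summed to 23.2 to 43.4 CPM, with Foxd3 lower in the double KO. Of 7 radial glia markers Pax6 rose in the double KO. Of 7 neuron markers none was called between genotypes, while Dcx, Elavl3 and Map2 had negative slopes on the score. The 7 neuron markers summed to 3218 to 3870 CPM in WT and 3186 to 5292 in Dmrt3 KO. Their sums in replicate order were 5625, 5370, 3790 and 4830 CPM in Dmrt5 KO. For the double KO the sums were 6800, 5643, 5004, 2955 and 5702 CPM, above every WT library except in replicate 4. The part of these cells in the collagen results was not tested.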

How the data were processed

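Per the labels' protocols, total RNA came from RNeasy columns, and the TruSeq RNA v2 kit, which does not mark strand, served for library preparation. The deposited files hold raw read counts per Ensembl gene, with no normalisation by the authors. STAR 2.3.0e, featureCounts 1.4.6-p1 and the mouse build mm10 are among the names in the submitters' processing notes. Not given in the sources used here are the annotation release and how multi-mapping reads were treated.

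Symbols, exons and coordinates came from GENCODE M21 (GRCm38, the assembly of mm10), which matched 36602 of 38355 identifiers; the others held 0.397% of the counts. The counts were fitted in edgeR 4.0.16 (R 4.3.3) with TMM scaling, filterByExpr and a quasi-likelihood fit of 1 mean per genotype to all 18 libraries. Each SE is the log2 fold change divided by the root of its F statistic, and tests were two-sided. Log2 CPM used a prior count of 2. Alternatives were other size factors, no filter, DESeq2 1.42.0, fewer libraries, a replicate block and the mesenchyme score as covariate. The fits were also run on simulated data with known changes, with the counts of each gene drawn separately. For the comparison of genotypes no shift shared by many genes of 1 library was simulated. That run therefore does not bear on the calls that turned on double KO replicate 4.

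Members and lists were chosen with earlier results of these data known. Values are given for members called between genotypes, the 10 highest per kilobase, up to 3 per structural class, neighbouring members and those under the count limit, and for up to 4 called genes per list and comparison with the lowest adjusted p. Other members named for a slope, a spread or a left-out library, such as Col16a1 and Col27a1, were chosen after their values were seen.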

Additional observations from a re-analysis of the deposited data

Results flagged for a closer look

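Within each genotype the gap between the highest or lowest library and its nearest neighbour was set against the range of the group. This was done for 16 named collagen genes, the collagen share of counts and the mesenchyme score. Of 72 groups of values, 24 had a library standing apart. The limit is set to flag about 1 in 20 groups of normally distributed values. Unlogged CPM need not be so distributed, and some of the genes were chosen after their values were seen. The 24 are therefore not to be set against that rate. The 24 are not independent, because they come from 4 libraries. Double KO replicate 4 gave 14 of them, Dmrt5 KO replicate 4 gave 6, Dmrt3 KO replicate 5 gave 3 and Dmrt3 KO replicate 2 gave 1.

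Double KO replicate 4 stood above the other double KO libraries in the collagen share of counts, at 0.455%, and in 13 genes. The fibrillar chains were at 421 CPM for Col1a1, 499.8 for Col1a2, 812 for Col3a1 and 133 for Col5a1. Basement membrane genes were at 461 CPM for Col4a1, 395 for Col4a2, 248 for Col18a1 and 36.5 for Col15a1. Col6a3 was at 41.9, Col8a2 at 98.8, Col16a1 at 19.1, Col23a1 at 39.1 and Col26a1 at 153 CPM in that library. Its mesenchyme score of 4.71 was the highest of the double KO but did not stand apart by the same measure.

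Dmrt5 KO replicate 4 stood above the other Dmrt5 KO libraries for Col1a1 (429.9 CPM), Col1a2 (386), Col3a1 (578), Col15a1 (34.2), Col6a3 (38.5) and Col8a2 (67.8). Dmrt3 KO replicate 5 did so for Col1a1 (775 CPM), Col1a2 (655) and Col8a2 (96.5). One library stood below its group, Dmrt3 KO replicate 2, with 148 CPM of Col18a1.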

How the results depend on the processing

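The number of collagen genes called in the double KO against WT was 2, and 1 with only those genotypes fitted (0.839% of all genes higher), 1 with the mesenchyme score as a covariate, 4 with DESeq2 (2 of them lower, Col15a1 and Col18a1, with 4.04% of all genes higher and 4.84% lower) and 20 without the library of highest score in each genotype. DESeq2 gave an adjusted p to 36 members in the comparisons of genotypes, and none to Col1a1 and Col8a1. Leaving out single libraries gave 2 to 19, and the 19 came without double KO replicate 4. Against Dmrt3 KO the number was 1, with 2 under DESeq2 (3.11% of all genes higher), 20 without the highest-score libraries (3 higher and 17 lower, against 2.3% and 4.37% of all genes) and 1 to 19 over single libraries. Against Dmrt5 KO it was 0, with 1 without the highest-score libraries (0.302% of all genes lower) and 0 to 1 over single libraries. In Dmrt5 KO against WT it was 0, and 2 with DESeq2. The slope on the score was called for 22 genes, for 11 without the highest-score libraries (10 higher, 1 lower, against 7.04% and 10.5% of all genes) and for 12 to 29 over single libraries. The 29 came without double KO replicate 1 or 5, where 6.95% and 6.5% of all genes were called with a positive slope. Without the highest-score libraries the slopes of Col27a1, Col5a2 and Col8a1 turned to -0.153, -0.0722 and -0.131. In the double KO against WT, Col26a1 turned to 0.26 and Col8a2 to 0.55 with the score as a covariate, and over single libraries Col8a2 ran from -4.20 without double KO replicate 4 to 0.0862 without WT replicate 4. The cause of these changes was not tested. Other size factors and no filter on low counts kept every count within 1.5 times its value, as did the interaction and Dmrt3 KO against WT under every alternative. With the replicate block 9 members were called in the double KO against WT (2 higher and 7 lower, against 2.91% and 4.67% of all genes) and 3 against Dmrt3 KO (1 higher and 2 lower, against 1.69% and 2.44%). The correlation of same-numbered libraries had a mean from -0.011 to 0.51 over the 6 pairs of genotypes, above that of other libraries in 5 of them, but reached down to -0.50 for single pairs. Of the 18 libraries 6 correlated best with their own number. The labels do not say what the numbers stand for, so this check cannot tell whether they pair the samples. Members with few counts, such as Col10a1 at 0 to 3, are beyond the reach of this depth.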
